A study of Homo sapiens with 19 samples.

Results

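Ephrins, Eph receptors, SLITs, ROBOs, netrins and the netrin receptors form the classical axon guidance families, and they were followed here through a knockdown study of pigment cells. They were picked by symbol, with earlier results of these data known. The rule took protein-coding genes named EPHA or EPHB with a number, EFNA or EFNB, and SLIT1 to SLIT3. It also took ROBO1 to ROBO4, the numbered netrins, UNC5A to UNC5D, DCC and NEO1. This gave 39 genes of the 44717 gene identifiers listed in any sample: 5 ephrin-A and 3 ephrin-B ligands, 9 EphA and 5 EphB receptors, 3 SLITs, 4 ROBOs, 4 netrins, 4 UNC5 receptors, and DCC with its relative neogenin (NEO1).

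Ephrins are ligands held on the cell surface, the A class by a lipid anchor and the B class by a membrane-spanning segment, and they bind Eph receptor tyrosine kinases on neighbouring cells, so that contact between cells leads to repulsion or adhesion. SLITs are secreted proteins that repel cells through ROBO receptors. Netrins are laminin-related secreted proteins that attract through DCC or neogenin and repel when an UNC5 receptor takes part, and netrin 4 is a basement membrane protein. In the pigment lineage these families are known for guiding the neural crest cells from which melanocytes arise, and for their varied expression in melanoma.

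The RNA-seq covered 19 samples of 2 established human lines. 501Mel is a melanoma line and Hermes 3A an immortalised melanocyte line, and each condition therefore rests on 1 line of its kind. Lentiviral vectors expressed a short hairpin RNA against BRG1 (shBRG1) or MITF (shMITF) or a scramble sequence. BRG1, the product of SMARCA4, is the ATPase of a chromatin-remodelling complex, and MITF is the master transcription factor of melanocytes. In 501Mel there were 3 samples of shBRG1 with 3 of their scramble control (shSCR1), and 2 samples of shMITF with 2 of another scramble control (shSCR2). In Hermes 3A there were 3 samples each of shBRG1, shMITF and the scramble (shSCR) that both shared. Per the study's methods, Hermes 3A was grown with TPA, cholera toxin, stem cell factor and endothelin-1, and 501Mel in plain serum medium, so line and medium cannot be told apart. Nothing in the labels says that replicates were separate cultures, and p-values measure the spread between these samples, which may be technical.

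Counts on genes ranged from 29158502 to 78857900 per sample. SMARCA4 averaged 182 CPM in shSCR1 and 36.9 in shBRG1 in 501Mel, and 244 and 47.5 in Hermes 3A (CPM, counts scaled to a common library size after TMM normalisation over all samples). MITF averaged 1103 CPM in shSCR2 and 522 in shMITF in 501Mel, and 1066 and 580.0 in Hermes 3A. MITF was also lower with shBRG1, at 200 CPM against 565 in 501Mel. In Hermes 3A the log2 change of MITF was -0.43 with shBRG1 and -0.85 with shMITF, each short of the limit of 1 used below. All 9 melanocyte lineage markers were above 1 CPM in every group, with a summed level of 29348.9 to 32119.8 CPM in shSCR1, 20398.1 to 24189.0 in shSCR2 and 64661.1 to 66149.6 in Hermes 3A shSCR. With the knockdowns the sum was 3214 to 3539 CPM (shBRG1) and 11897.9 to 12442.1 (shMITF) in 501Mel, and 31947.8 to 33175.3 (shBRG1) and 26985.7 to 34877.9 (shMITF) in Hermes 3A. Leukocyte markers summed to at most 0.937 CPM in any sample. Of 5 keratinocyte markers 1 reached 1 CPM in any group, and endothelial markers summed to at most 2.84 CPM in the 501Mel scramble samples and to 11.4 to 13.4 in Hermes 3A shSCR. The 6 fibroblast markers summed to 3.49 to 4.86 CPM in shSCR1, 15.7 to 19.0 in 501Mel shBRG1, 7.83 to 8.54 in shSCR2 and 7.49 to 13.9 in 501Mel shMITF. In Hermes 3A their sum was 71.9 to 81.2 CPM in shSCR, 143 to 153 with shBRG1 and 114 to 223 with shMITF, mostly COL1A2 (mean 68.1 CPM in shSCR). The part of these markers in the results below was not tested. The 501Mel scramble groups stood apart from each other, which is described with the members it touches.

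The promoters of 3 ligands that rose in more than 1 comparison are shown. NTN4 passed the test in all 4 comparisons, and SLIT2 rose with both knockdowns in 501Mel. EFNB2 rose with shBRG1 in 501Mel and with shMITF in Hermes 3A. Against shSCR2 the shBRG1 change of EFNB2 was -0.17, and its Hermes 3A call was lost without any 1 of the shSCR samples. EFNA1, called in 3 comparisons, is not shown, since an annotated exon overlaps its stretch. Each is the 250 bases before the first start that RefSeq lists on GRCh38.p14, in the direction of the gene, and no exon of GENCODE 29 overlapped any of the 3. NTN4 lies at chr12:95791156-95791405 on the minus strand, SLIT2 at chr4:20251655-20251904 on the plus strand and EFNB2 at chr13:106535663-106535912 on the minus strand. Capitals mark matches to the motifs described after them.
NTN4: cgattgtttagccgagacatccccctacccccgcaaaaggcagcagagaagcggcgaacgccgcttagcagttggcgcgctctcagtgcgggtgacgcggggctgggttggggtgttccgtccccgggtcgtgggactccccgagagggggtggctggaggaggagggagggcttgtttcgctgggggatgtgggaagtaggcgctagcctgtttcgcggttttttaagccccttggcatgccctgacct
SLIT2: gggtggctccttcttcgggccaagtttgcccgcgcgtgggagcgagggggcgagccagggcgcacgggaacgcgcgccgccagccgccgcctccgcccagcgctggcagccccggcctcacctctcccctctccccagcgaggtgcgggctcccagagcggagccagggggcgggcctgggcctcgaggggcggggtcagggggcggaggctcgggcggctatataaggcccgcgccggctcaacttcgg
EFNB2: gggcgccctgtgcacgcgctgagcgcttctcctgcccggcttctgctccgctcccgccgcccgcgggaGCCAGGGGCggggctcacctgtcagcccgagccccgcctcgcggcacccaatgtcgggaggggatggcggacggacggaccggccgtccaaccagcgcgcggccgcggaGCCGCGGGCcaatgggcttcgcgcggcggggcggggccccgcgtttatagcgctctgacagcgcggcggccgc

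Letters of 5 motifs linked to factors of the melanocyte lineage were searched on both strands: CACGTG and CATGTG (the E-box and M-box letters that MITF binds), ACAAAG (SOX factors), GCCNNNGGC (AP-2 factors) and AAGATGG (YY1). No match in the stretches shown overlaps another. RefSeq promoters were found for 33 of the 39 genes, 44 promoters in all, as some genes have several starts. CACGTG stood in 1 of the 44 (EPHA8), with 6.34% of all 35116 promoters holding it. CATGTG stood in EPHB6 and ROBO1, where the share of all promoters was 9.42%. ACAAAG stood in EFNA1 and EFNA2 (13.7% of all promoters), and AAGATGG in EPHB6 alone (3.7%). GCCNNNGGC stood in 14 of the 44 promoters, of 13 genes, and in 19.8% of all promoters, and in EFNB2 it stood 182 and 73 bases before the start. The promoters of the members had a median GC content of 66.6%, with 58% over all promoters. NTN4 and SLIT2 held none of the 5 in the stretches shown, but the promoter of a second NTN4 start held GCCNNNGGC.

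In the scramble controls the families were unevenly present. Levels between genes are given per length, as CPM per kilobase of exon (CPM/kb). A mean of at least 1 CPM/kb was reached by 15 of the 39 genes in shSCR1, 16 in shSCR2 and 10 in Hermes 3A. In bulk RNA such as this, fewer cells that express a gene and less of its RNA per cell cannot be told apart. ROBO1, the receptor of SLIT2, stood at 16.9 CPM/kb in shSCR1, 17.7 in shSCR2 and 10.9 in Hermes 3A, the highest level of any of these genes in the melanocyte line. EPHB4, the receptor of ephrin-B2, followed there at 8.76 CPM/kb, then the ligand EFNB3 at 5.05, EPHA2 at 4.17, NEO1 at 3.96, EPHA5 at 3.64 and ROBO3 at 3.43. Over the 3 Hermes 3A samples EPHA2 ranged from 3.97 to 4.32 CPM/kb and NEO1 from 3.77 to 4.13, so that these neighbours overlapped, whereas ROBO1, EPHB4 and EFNB3 were each clear of the next gene.

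In 501Mel EPHA3 stood at 17.8 CPM/kb in shSCR1 and 29.2 in shSCR2, with 1.08 in Hermes 3A. In shSCR1 it overlapped ROBO1 (15.7 to 19.1 and 16.3 to 17.2 CPM/kb), and in shSCR2 it was above ROBO1 in both samples. EFNA1 was the most abundant ligand of shSCR1, at 32.4 CPM/kb, but stood at 1.48 in shSCR2. EFNB3 (5.43 and 3.80 CPM/kb), EFNA4 (5.28 and 2.82), EPHB4 (4.99 and 4.97), EPHA4 (4.76 and 5.52), EPHA5 (3.62 and 3.47) and EFNB1 (3.14 and 3.35) were present in both 501Mel scramble groups. The first value of each pair is shSCR1 and the second shSCR2. The receptors of the netrins were sparse apart from NEO1: UNC5B and UNC5C stayed at or under 0.245 CPM/kb in all 3 scramble groups, and DCC had at most 2 counts in any scramble sample.

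**Figure D1:**
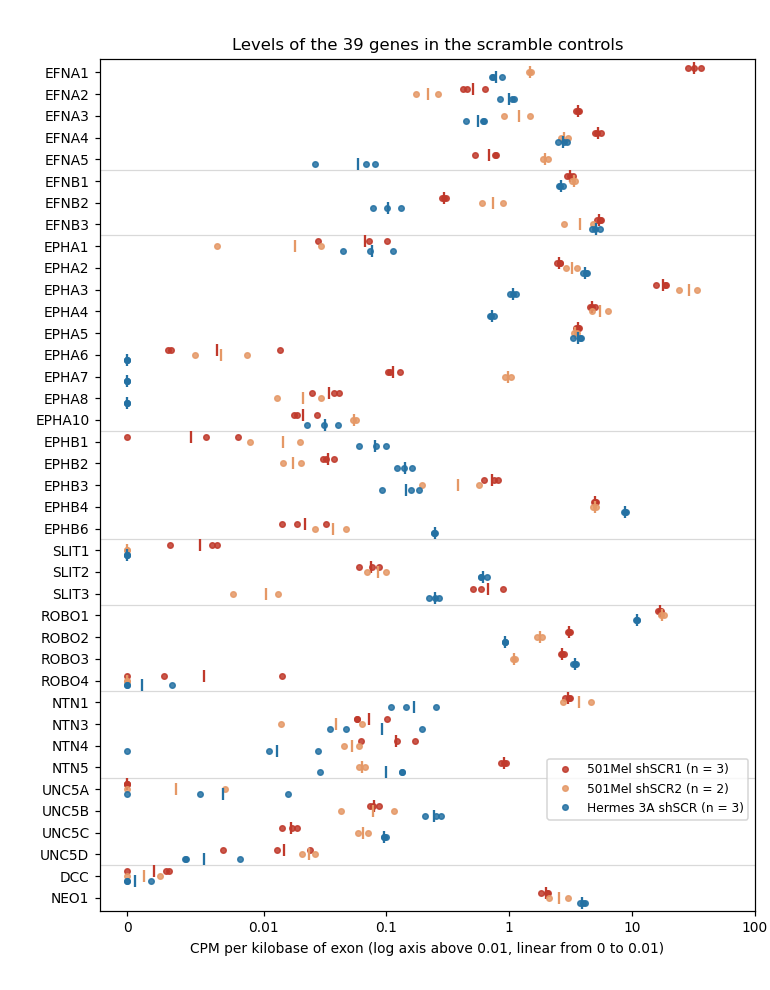
Level of each of the 39 genes in the scramble controls, in CPM per kilobase of exon on an axis that is logarithmic above 0.01 and linear below it. Points are samples and ticks are group means (3 samples of 501Mel shSCR1, 2 of shSCR2, 3 of Hermes 3A shSCR). EPHA3 and EPHA4 lie to the right in both 501Mel groups, and EFNA1, SLIT3 and NTN5 lie far apart between those groups.

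The level of each gene in the melanoma and the melanocyte line was compared with both 501Mel scramble groups, and a gene was taken as different only where both contrasts with Hermes 3A passed in the same direction (adjusted p under 0.05 and a log2 difference over 1, edgeR's quasi-likelihood test, Benjamini-Hochberg adjusted). Of 34 members tested, 10 were higher and 5 lower in 501Mel, where 12.3% and 13.2% of all genes tested were. Taken singly, shSCR1 differed from Hermes 3A for 58.8% of the members and 41.1% of all genes, and shSCR2 for 58.8% and 42.5%. The samples of shSCR1 and Hermes 3A did not overlap for 28 members (79.6% of all genes) and those of shSCR2 and Hermes 3A for 29 (78% of all genes). The genes higher in both contrasts were the ligands EFNA3, EFNA5, EFNB2, NTN1 and NTN4 and the receptors EPHA3, EPHA4, EPHA7, EPHA8 and EPHB3. The lower ones were SLIT2 and the receptors EPHB1, EPHB2, EPHB6 and UNC5B. Of 8 EphA receptors tested 4 were thus higher in the melanoma line, and of 5 EphB receptors 1 was higher and 3 lower. EPHA1 and EPHA2 had lower values in 501Mel, by -0.14 and -0.69 for shSCR1 and by -1.76 and -0.33 for shSCR2. Of these values only that of EPHA1 for shSCR2 was called.

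EPHA3 had 105, 125 and 128 CPM in the shSCR1 samples, 162 and 227 in shSCR2 and 7.20, 6.82 and 7.57 in Hermes 3A. Its log2 difference from Hermes 3A was 4.07 (SE 0.12) for shSCR1 and 4.79 (SE 0.13) for shSCR2. NTN1, which encodes netrin 1, had 18.1 to 20.1 CPM in shSCR1, 17.5 and 29.6 in shSCR2 and 0.693 to 1.61 in Hermes 3A, with log2 differences of 4.23 and 4.53. No count of EPHA7 was made in the Hermes 3A scramble samples, and against a floor of 3 counts over that group EPHA7 was at least 34.0-fold higher in shSCR1 and at least 301-fold higher in shSCR2. EPHA8, also without a count there, was at least 7.27-fold and 3.85-fold higher, from 5 to 11 counts a sample. SLIT2 went the other way, with log2 differences of -3.02 and -2.88, from 5.75 to 6.46 CPM in Hermes 3A and 0.585 to 0.970 in the 5 scramble samples of 501Mel. EPHA5 did not differ by the test, with log2 differences of 0.02 (SE 0.07) and -0.03 (SE 0.08).

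The first knockdown comparison asks what silencing of BRG1 does in the melanoma line. Of 33 members tested, 9 rose and 10 fell with shBRG1, 57.6% of those tested, whereas 39.1% of all genes tested were called (21.7% higher and 17.4% lower). The median log2 change was -0.40 over the members tested and 0.05 over all genes. The samples did not overlap between the groups for 30 of the 33, and for 81.6% of all genes. Scaled by library size alone, without TMM, the median of all genes moved from 0.05 to 0.40, and 14 members rose. Fibroblast markers moved in the same comparison, with 4 of the 5 tested called higher, and all 9 melanocyte markers were called lower; their part was not tested. EPHA6, ROBO4, SLIT1, UNC5A, NTN3 and DCC had too few counts to be tested.

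**Figure D2:**
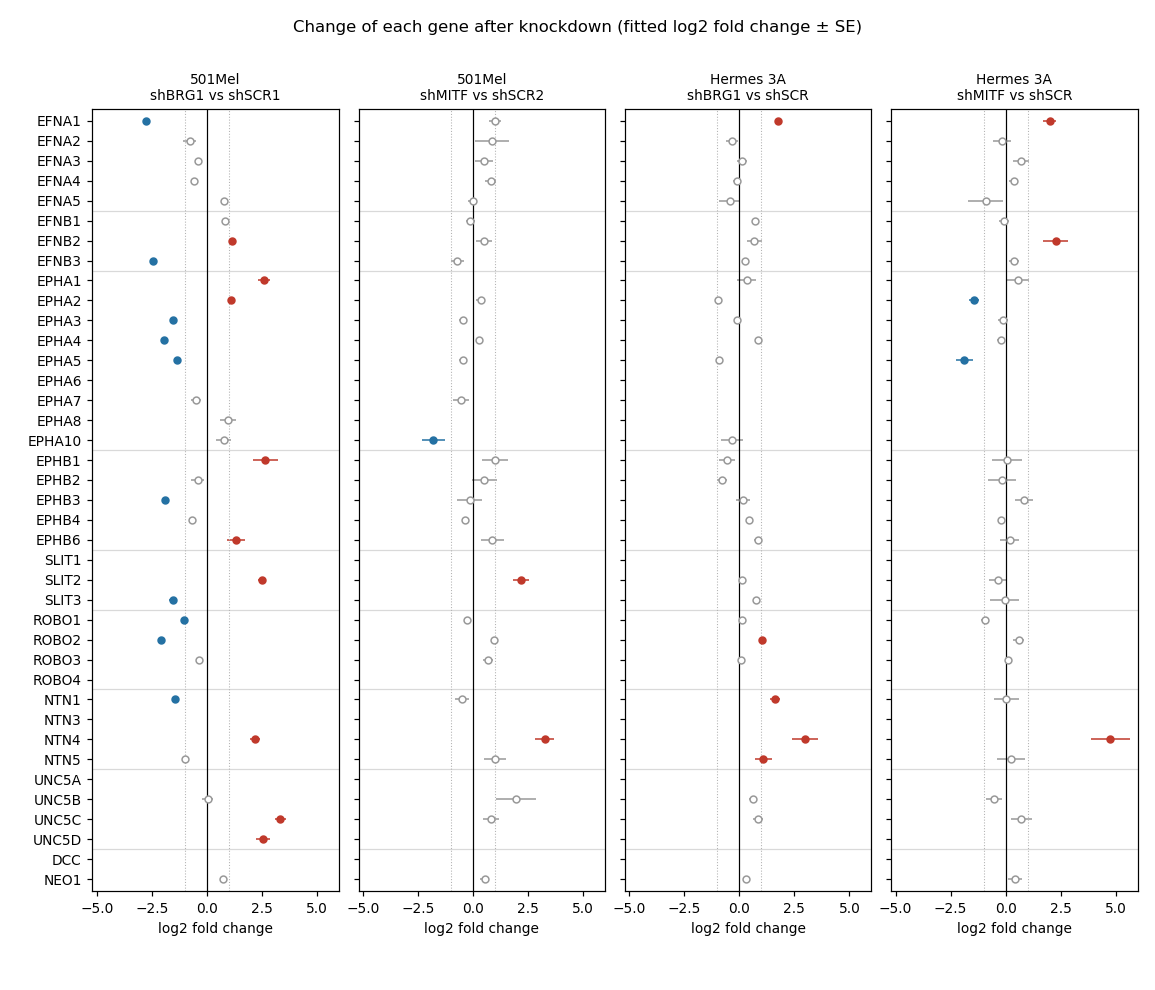
Fitted log2 fold change of each gene in the 4 knockdown comparisons, with the standard error as a bar; grey lines divide the families. Red points rose and blue points fell (adjusted p under 0.05 and a change over 1), open grey points did not pass, and genes without a point were not tested. NTN4 is red in every panel, at 2.18, 3.25, 3.00 and 4.76 from left to right, and the first panel holds 19 of the filled points.

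Among the ligands, EFNA1 and EFNB3 fell the most with shBRG1 in 501Mel. EFNA1, which encodes ephrin-A1, had 92.5, 81.5 and 72.7 CPM in shSCR1 and 13.0, 12.0 and 12.8 in shBRG1. Every shBRG1 sample was far below every shSCR1 sample, and the log2 change was -2.76 (SE 0.07, adjusted p = 1.5e-19, Benjamini-Hochberg adjusted, edgeR's quasi-likelihood test). The samples of the other scramble group, shSCR2, had 3.85 and 3.68 CPM and were below every shBRG1 sample. EFNB3, a ligand of EphB receptors and EPHA4, had 16.6, 18.1 and 17.8 CPM in shSCR1 and 3.43, 3.07 and 3.56 in shBRG1, a log2 change of -2.43 (SE 0.08). EFNB2 rose, with a log2 change of 1.15 (SE 0.13). The other ephrins changed by less than the limit of 1: EFNB1 by 0.82, EFNA5 by 0.78, EFNA3 by -0.40, EFNA4 by -0.57 and EFNA2 by -0.79.

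The Eph receptors split in direction. EPHA3 (-1.54), EPHA4 (-1.96), EPHA5 (-1.34) and EPHB3 (-1.90) fell, and EPHA1 (2.60), EPHA2 (1.08), EPHB1 (2.66) and EPHB6 (1.34) rose on the log2 scale. Of the 4 that rose, EPHA1, EPHB1 and EPHB6 had at most 24 counts in any shSCR1 sample. EPHA1 had 0.480, 0.132 and 0.343 CPM in shSCR1, from 24, 7 and 12 counts, and 2.19, 1.96 and 1.73 in shBRG1, from 132, 117 and 91. The groups did not overlap (adjusted p = 2.7e-09 by edgeR). EPHA1 overlaps ZYX, which lies on the opposite strand, averaged 4772 counts over all samples where EPHA1 averaged 29.9, and rose by 3.55 on the log2 scale in the same comparison. Whether reads were counted by strand is not given in the sources used here, so the reads of the 2 genes cannot be told apart. EPHA2 had 10.2 to 10.8 CPM in shSCR1 and 21.3 to 25.4 in shBRG1, which is a rise of an abundant receptor. Leaving out replicate 2 of shBRG1 took its change to 1.00, just under the limit.

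EPHB4 changed by -0.67 and did not reach the limit, and it overlaps SLC12A9 on the opposite strand, which changed by -1.27. EPHA7, EPHA8, EPHA10 and EPHB2 did not pass, with values from -0.48 to 0.96. EPHA5 overlaps the pseudogene RPL6P10 and the antisense transcript EPHA5-AS1, both on the opposite strand, with mean counts of 119.5 and 65.5 against 1121 for EPHA5.

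In the SLIT and ROBO families the ligand SLIT2 and its receptors moved apart. SLIT2 had 0.840, 0.585 and 0.743 CPM in shSCR1 and 4.52, 3.88 and 4.25 in shBRG1. The groups were well separated, and the log2 change was 2.50 (SE 0.16, adjusted p = 5.4e-13 by edgeR). ROBO2 had 51.6, 52.0 and 50.4 CPM in shSCR1 and 13.3, 11.5 and 12.7 in shBRG1. It fell by 2.09 on the log2 scale (SE 0.06). ROBO1 fell by 1.04 and SLIT3 fell by 1.54, while ROBO3, a divergent ROBO that does not bind SLITs in mammals, changed by -0.35. The fall of EPHA5 given above was -0.99 with library sizes. That of ROBO1 was near the limit too: it was -0.69 with library sizes and -0.99 without replicate 2 of shBRG1. ROBO2 overlaps the pseudogene CAP1P1, which changed by -1.44 from a mean of 73.5 counts.

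Netrins and UNC5 receptors also went both ways. UNC5C, a repulsive netrin receptor, had 0.180, 0.151 and 0.200 CPM in shSCR1 and 1.86, 2.15 and 1.52 in shBRG1. From 7 to 9 counts a sample it came to 80 to 128, without overlap, and its log2 change of 3.34 (SE 0.25, adjusted p = 1.9e-11 by edgeR) was the largest rise in this comparison. UNC5D rose by 2.54 from 4 to 9 counts a sample to 45 to 56. NTN4, netrin 4, rose by 2.18, from 13, 27 and 25 counts to 127, 126 and 130, and NTN1 fell by 1.46, from 19.3 CPM (SD 1.06, n = 3) to 7.22 (SD 0.358, n = 3). NTN5 changed by -0.997, UNC5B by 0.04 and NEO1 by 0.73, and these did not reach the limit.

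The control group decided part of this list. 501Mel shSCR1 and shSCR2 are both scramble controls of 1 line, yet 9 members were higher and 5 lower in shSCR1 than in shSCR2 among 34 tested, 41.2% of them, and 31.5% of all genes tested were called (19.7% higher and 11.8% lower). The groups did not overlap for 22 members and for 76.2% of all genes. Whether both groups carried the same scramble sequence is not given in the sources used here, and the scramble vector and the series of samples it was run with cannot be told apart. SLIT3 had 12.8, 8.48 and 7.29 CPM in shSCR1 and 0.188 and 0.111 in shSCR2, a log2 difference of 6.12 (SE 0.36). EFNA1 had 3.85 and 3.68 CPM in shSCR2, a log2 difference of 4.45 (SE 0.13) from shSCR1. NTN5 differed by 3.80, EPHA7 by -3.12, UNC5C by -1.94, EFNA3 by 1.63, EFNA5 by -1.54 and EFNB2 by -1.33.

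Set against shSCR2 in place of shSCR1, a comparison chosen after the data were seen, the shBRG1 change of EFNA1 was 1.69, that of SLIT3 4.59 and that of EFNB2 -0.17, so that their directions turned. Those of EPHB3 (-0.86), EPHB6 (0.67) and EPHA2 (0.73) no longer passed the limit. The other 13 of the 19 calls passed in the same direction against either control. For UNC5C the change was 1.40 against shSCR2 and 3.34 against shSCR1, for EPHB1 1.07 and 2.66, and for NTN4 3.23 and 2.18. EFNB3 (-1.92), ROBO2 (-1.30), EPHA4 (-2.18), EPHA3 (-2.26) and SLIT2 (2.36) moved less between the controls.

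**Figure D3:**
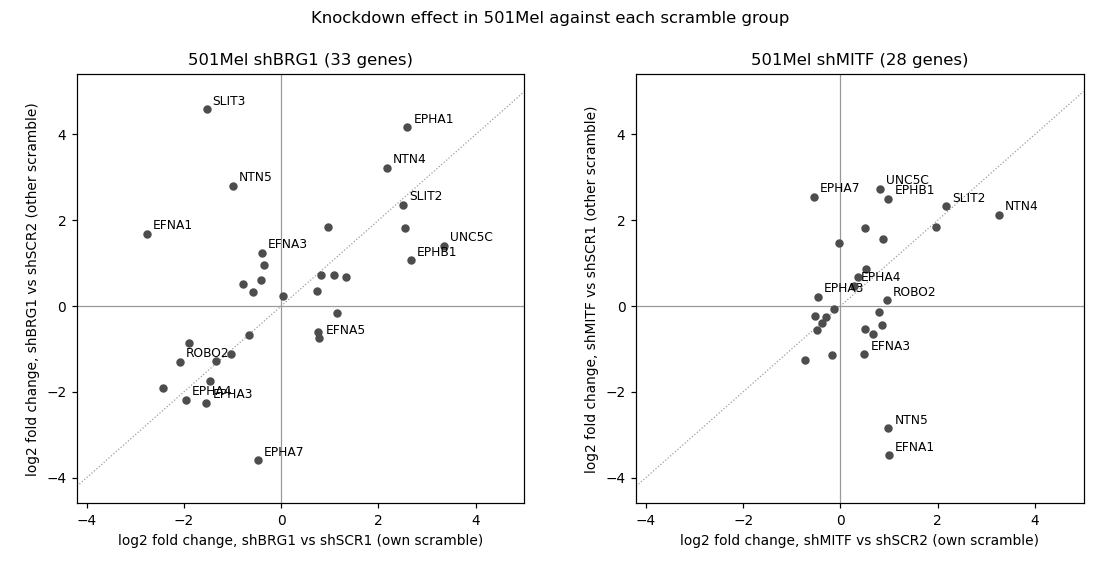
Log2 fold change of each gene in 501Mel against the scramble group of its own series (horizontal axis) and against the other scramble group (vertical axis), for shBRG1 (33 genes) and shMITF (28 genes). Points on the dotted line have equal values; EFNA1, SLIT3 and NTN5 sit at -2.76, -1.54 and -0.997 on the horizontal axis for shBRG1 and at 1.69, 4.59 and 2.81 on the vertical one, and NTN4 and SLIT2 are positive on both axes in both panels.

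Silencing of MITF in 501Mel, the second comparison, called far fewer of these genes. Of 29 members tested 2 rose and 1 fell, 10.3%, and 8.99% of all genes tested were called (5.59% higher and 3.4% lower). With 2 samples a group this comparison was the least replicated. NTN4 had 0.188 and 0.249 CPM in shSCR2, from 6 and 18 counts, and 1.89 and 2.35 in shMITF, from 85 and 121. Both shMITF samples were above both controls, and the log2 change was 3.25 (SE 0.42, adjusted p = 0.00147 by edgeR). SLIT2 had 0.970 and 0.678 CPM in shSCR2 and 3.31 and 3.96 in shMITF, without overlap. Its log2 change was 2.18 (SE 0.37, adjusted p = 0.00449). Against shSCR1 the changes of NTN4 and SLIT2 were 2.13 and 2.32.

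EPHA10, an Eph receptor without kinase activity, fell by 1.80 on the log2 scale from 14 and 33 counts to 7 and 5. Its adjusted p was 0.0354 by edgeR and lay between 0.0593 and 0.215 with any 1 of the 4 samples left out. ROBO2 had 28.1 and 31.1 CPM in shSCR2 and 61.6 and 52.2 in shMITF, a log2 change of 0.96 (SE 0.14, adjusted p = 0.00227) just under the limit, and against shSCR1 it was 0.13. EFNA1 was likewise just under it at 1.00 (SE 0.26), and against shSCR1 its value was -3.48. UNC5B had a log2 change of 1.96 but overlapped between the groups, with 0.782 and 0.290 CPM in shSCR2 and 0.643 and 3.20 in shMITF. The other 23 members tested did not pass, and their values ran from -0.72 for EFNB3 to 0.99 for EPHB1.

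Silencing of BRG1 in the melanocyte line raised 5 of 30 members tested and lowered 0, 16.7%, and 9.26% of all genes tested were called (5.78% higher and 3.47% lower). No member passed the fall with DESeq2 either. By edgeR 3 members were lower at an adjusted p under 0.05 but short of the fold limit: EPHA2 (-0.99), EPHA5 (-0.93) and EPHB2 (-0.79). EFNA1 had 2.21, 1.85 and 1.87 CPM in shSCR and 6.89, 6.17 and 7.25 in shBRG1. The groups did not overlap, and EFNA1 rose by 1.75 on the log2 scale (SE 0.13, adjusted p = 5.2e-12 by edgeR). NTN1 had 0.920, 1.61 and 0.693 CPM in shSCR and 3.63, 3.11 and 3.10 in shBRG1, a log2 change of 1.63 (SE 0.21). ROBO2 had 15.3, 15.6 and 15.5 CPM in shSCR and 32.4, 32.6 and 31.3 in shBRG1. Its replicates were tight, and the log2 change was 1.04 (SE 0.06, adjusted p = 5.5e-14 by edgeR).

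NTN4 rose there too, by 3.00 on the log2 scale (SE 0.59), from 2, 0 and 5 counts to 26, 22 and 21. NTN5, a lesser known member of the netrin family, rose by 1.09 from 18, 3 and 18 counts to 36, 30 and 31, and the change passed no longer without any 1 of 3 samples, replicate 2 of shSCR or replicate 1 or 3 of shBRG1 (0.71 to 1.35 over all samples left out). Besides the falls of EPHA2, EPHA5 and EPHB2 given above, rises below the limit had an adjusted p under 0.05. These were EPHA4 (0.86), EPHB6 (0.86), UNC5C (0.84), SLIT3 (0.74), EFNB1 (0.71), UNC5B (0.62), EPHB4 (0.42), NEO1 (0.29), EFNB3 (0.24) and ROBO1 (0.14). SLIT2, which rose with the same hairpin in 501Mel, had a log2 change of 0.10 (SE 0.11) here. The groups did not overlap for 18 of the 30 members, and for 61.7% of all genes.

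Silencing of MITF in the melanocyte line raised 3 and lowered 2 of 29 members tested, 17.2%, and 7.39% of all genes tested were called (3.35% higher and 4.04% lower). The shMITF samples varied more than those of other groups, and the replicate that stood apart differed between genes. SLIT3 had 268 counts in replicate 1 and 40 and 28 in the others, and EFNB2 had 148 in replicate 2 and 45 and 37 in the others. EFNA1 had 6.15, 10.8 and 6.34 CPM in shMITF against 2.21, 1.85 and 1.87 in shSCR, a log2 change of 2.00 (SE 0.29, adjusted p = 0.00363 by edgeR). NTN4 had 109, 29 and 20 counts in shMITF against 2, 0 and 5. Even the lowest shMITF sample was above every control, and the log2 change was 4.76 (SE 0.87). EFNB2, ephrin-B2, had 1.29, 4.73 and 1.39 CPM in shMITF against 0.506, 0.655 and 0.393, a log2 change of 2.29 (SE 0.57, adjusted p = 0.0288 by edgeR) that lost its call without any 1 of the shSCR samples.

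Both members that fell were EphA receptors. EPHA2 had 18.0, 16.5 and 17.5 CPM in shSCR and 8.47, 5.05 and 5.10 in shMITF, without overlap, and fell by 1.46 on the log2 scale (SE 0.23, adjusted p = 0.00494 by edgeR). EPHA5 had 38.0, 32.6 and 36.8 CPM in shSCR and 5.03, 16.8 and 6.82 in shMITF. It fell by 1.88 on the log2 scale (SE 0.40, adjusted p = 0.0161), and the call was lost without any 1 of the shSCR samples, without replicate 3 of shMITF and with no filter on low counts. ROBO1 was lower by 0.94 with an adjusted p of 0.00597 and did not reach the limit. For 9 of the 29 members the groups did not overlap, as for 40.4% of all genes. EPHA8 was not listed for the shMITF samples and was not used in this comparison. As both Hermes 3A comparisons share their scramble samples, their values for a gene are not independent.

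**Figure D4:**
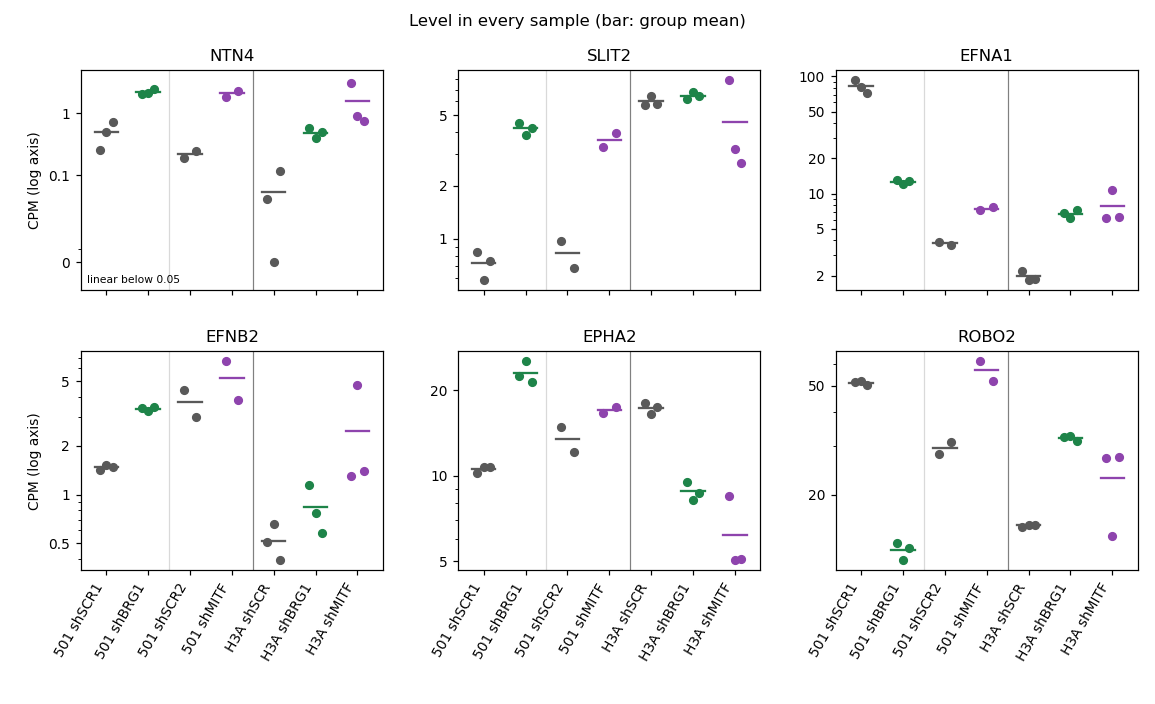
CPM of 6 genes in every sample, on logarithmic axes (linear below 0.05 for NTN4), with group means as bars. Vertical lines part the 501Mel shBRG1 series, the 501Mel shMITF series and Hermes 3A (H3A). NTN4 is at or above 0.393 CPM in every knockdown sample, and the shSCR1 controls span 0.260 to 0.715 CPM. EFNA1 spans 72.7 to 92.5 CPM in shSCR1 alone, and EPHA2 rises with shBRG1 in 501Mel and is lower with it in Hermes 3A.

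Over the 4 comparisons 21 members were called at least once, 12 were tested and never called, and 6 were never tested. NTN4, at chr12:95657807-95791152 on the minus strand of GRCh38, was the 1 member called in all 4, each time as a rise. It is shown sample by sample in each of them for that reason, which was chosen after its values were seen. Its level stayed low in all groups, at most 3.13 CPM, and 0.536 CPM/kb at the highest group mean. SLIT2 rose in both 501Mel comparisons and in neither of Hermes 3A, where its scramble level was already 5.75 to 6.46 CPM, above the 3.31 to 4.52 it reached in the 501Mel knockdown samples. EFNA1 rose with both knockdowns in Hermes 3A. In 4 members calls of both directions occurred: EFNA1, NTN1 and ROBO2 fell with shBRG1 in 501Mel and rose with it in Hermes 3A, and EPHA2 rose with shBRG1 in 501Mel and fell with shMITF in Hermes 3A.

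The difference between the lines was tested itself, as the shBRG1 effect in 501Mel minus that in Hermes 3A. It passed for 18 of 34 members, 7 with a higher and 11 with a lower effect in 501Mel, 52.9%, and for 26.9% of all genes tested. ROBO2 differed by -3.16 (SE 0.09), NTN1 by -3.13 (SE 0.19), EFNA1 by -4.54 (SE 0.14), EFNB3 by -2.70, EPHA4 by -2.85 and EPHB3 by -2.12. In the other direction EPHA2 differed by 2.04 (SE 0.11), SLIT2 by 2.37 (SE 0.20), UNC5C by 2.47 and EPHB1 by 3.18. The call of UNC5D (2.58) was lost without replicate 2 of shSCR1 (2.19) or of Hermes 3A shSCR (2.25) and without replicate 1 (2.22) or 3 (2.08) of Hermes 3A shBRG1, and that of EFNA5 (1.22) without replicate 3 of Hermes 3A shSCR (0.91). NTN4 gave -0.85 (SE 0.65), which did not pass. All these shBRG1 differences rest on shSCR1 as the 501Mel control, against which EFNA1 fell. Against shSCR2 the 501Mel change was 1.69 for EFNA1, -0.75 for EFNA5 (0.78 against shSCR1) and 1.40 for UNC5C (3.34 against shSCR1). Those of EPHA4 (-2.18 and -1.96) and SLIT2 (2.36 and 2.50) moved less. The difference between the lines was not tested with shSCR2. The shMITF effect differed between the lines for 2 of 31 members, 6.45%, and for 2.64% of all genes tested: EPHA2 by 1.80 (SE 0.34) and SLIT2 by 2.52 (SE 0.60). The call of EPHA2 was lost without replicate 2 of shSCR2, of 501Mel shMITF or of Hermes 3A shSCR, and that of SLIT2 without any 1 of the 7 samples of shSCR2, 501Mel shMITF and Hermes 3A shSCR (2.21 to 3.17 over all samples left out). No member had a lower shMITF effect in 501Mel by edgeR or DESeq2, and 3 did at an unadjusted p under 0.05.

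Within 501Mel, the shBRG1 effect minus the shMITF effect passed for 3 members with a higher and 9 with a lower value among 35 tested, 34.3%, and for 27.3% of all genes tested. UNC5D (4.45), UNC5C (2.53) and EPHA10 (2.60) were higher. EFNA1 (-3.74), SLIT3 (-3.03), ROBO2 (-3.02), EPHA4 (-2.22), NTN5 (-1.96), EPHB3 (-1.77), EFNB3 (-1.70), EFNA4 (-1.33) and EPHA3 (-1.05) were lower. Each side of this contrast has its own scramble group, and the gaps between those groups given above enter it in full. EPHA3 fell short without replicate 2 of shBRG1 (-0.93) or replicate 1 of shSCR2 (-0.88) or of shMITF (-0.80), EPHB3 without replicate 1 of shBRG1 (-1.61) or of shMITF (-1.40), and SLIT3 without replicate 2 of shSCR2 (-2.53) or of shMITF (-1.68). SLIT2 and NTN4 did not differ by the test, at 0.31 (SE 0.33) and -1.05 (SE 0.48).

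Genes that lie beside each other differed in the size of their change, more so in some comparisons than in others. EFNA4, EFNA3 and EFNA1 follow one another on chromosome 1, within chr1:155063731-155134857 on GRCh38. With shBRG1 in 501Mel they changed by -0.57, -0.40 and -2.76 on the log2 scale against shSCR1. Against shSCR2 these values were 0.32, 1.24 and 1.69. In Hermes 3A shBRG1 changed EFNA3 by 0.13 and EFNA1 by 1.75. With shMITF EFNA4, EFNA3 and EFNA1 changed by 0.79, 0.49 and 1.00 in 501Mel and by 0.38, 0.69 and 2.00 in Hermes 3A. Between shSCR1 and shSCR2 they differed by 0.89, 1.63 and 4.45. ROBO1 and ROBO2, neighbours on chromosome 3, changed by -1.04 and -2.09 with shBRG1 in 501Mel and by 0.14 and 1.04 in Hermes 3A. With shMITF their values had opposite signs, -0.30 and 0.96 in 501Mel and -0.94 and 0.59 in Hermes 3A, none of which reached the fold limit.

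The partners of these families inside and at the cell surface were followed with a list of 61 other pathway genes, of which 60 were found. With shBRG1 in 501Mel 6 rose and 13 fell of 58 tested, 32.8%, under the 39.1% of all genes. SDCBP, which encodes syntenin, a scaffold that binds the tail of ephrin-Bs, fell by 2.31 (from 558 CPM, SD 25.1, to 116, SD 3.97, n = 3 each). ADAM10, the protease that sheds ephrins, fell by 2.02. YES1, a Src family kinase, rose by 1.20 and ACP1, a phosphatase that acts on Eph receptors, by 1.03. All these changes are against shSCR1, and those of single pathway genes against shSCR2 are not given. Fewer pathway genes passed as higher when the scramble groups were pooled, so these rises may depend on the control. With shMITF in 501Mel 2 rose and 0 fell of 54 tested, 3.7%: SRGAP1, a GTPase-activating protein that binds ROBO receptors, by 1.04, and FLRT3, a ligand of UNC5 receptors, by 1.39. DESeq2 also called 0 lower, and 9 were lower at an unadjusted p under 0.05 by edgeR.

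In Hermes 3A, shBRG1 raised 4 and lowered 1 of 55 of these genes (9.09%), and shMITF raised 1 and lowered 2 of 55 (5.45%). DRAXIN, a secreted netrin antagonist, rose by 3.72 with shBRG1, from 0.646 CPM (SD 0.242) to 8.40 (SD 1.48). FLRT1 rose by 3.11 with shBRG1 and by 4.03 with shMITF. VAV3, an exchange factor that acts downstream of Eph receptors, fell by 1.68 and 1.23. DAPK1, a death-associated kinase that binds UNC5 receptors, fell by 1.13 with shMITF.

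The 6 members not tested in any knockdown comparison had few counts. EPHA6 had at most 19 counts in any sample, NTN3 and ROBO4 at most 15, SLIT1 and UNC5A at most 5 and DCC at most 3. NTN3 and ROBO4 entered some of the other contrasts and did not pass. EPHA6 nonetheless did not overlap between the groups in either 501Mel comparison, with 1, 1 and 3 counts in shSCR1 and 9, 7 and 7 in shBRG1, and 1 and 4 counts in shSCR2 and 9 and 19 in shMITF. ROBO4 had 5, 1 and 0 counts in shSCR1 and 11, 15 and 8 in shBRG1. These genes fell under the filter on low counts, and their changes were not tested. The floors used above cover counting error only.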

How the data were processed

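RNA-seq of ribosome-depleted total RNA, normalised with a duplex-specific nuclease that lowers abundant cDNAs, was aligned by the authors with TopHat 1.4.1 and Bowtie 0.12.7 to hg19 after base calling with CASAVA 1.8, per the labels. The deposited values are raw counts per Ensembl gene, 1 file a sample; the counting tool, its annotation and its use of strand are not given in the sources used here. Total counts were 29158502 to 78857900 per sample. Gene lengths and positions came from GENCODE 29 (GRCh38) by Ensembl identifier, and promoters from RefSeq.

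Each comparison was fitted over its own groups with edgeR 4.0.16 (TMM, filterByExpr, robust quasi-likelihood test, Benjamini-Hochberg adjustment over all genes tested; R 4.3.3). A gene was called at an adjusted p under 0.05 and a log2 change over 1. Differences between effects were contrasts of a fit over the groups involved. CPM used TMM over all 19 samples. The code was tested on simulated data. Alternatives were DESeq2 1.42.0, library sizes, other filters, a replicate block, 1 fit per line, pooled scramble groups and leaving out samples. Same-numbered samples deviated together by correlations of -0.0489 to 0.131, and samples of different number by -0.131 to 0.0764. Numbers were taken as names only. The values of 0.131 and -0.131 are from shMITF in 501Mel, where 2 samples a group force equal and opposite values. That comparison cannot decide on pairing.

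Members and lists were chosen with earlier results of these data known. Values in each sample were given for the 3 called members that rose and the 3 that fell most per comparison, among those without overlap and with a mean of at least 100 counts in the higher group. Log2 changes were given for up to 2 other pathway genes each way by the same conditions, with group means for SDCBP and DRAXIN only. Others were chosen after their values were seen.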

Additional observations from a re-analysis of the deposited data

Results flagged for a closer look

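The effect of a knockdown differed between 501Mel and Hermes 3A by the test of the difference itself, a quasi-likelihood contrast in edgeR adjusted by Benjamini-Hochberg, for the following members. Values are log2 differences, the effect in 501Mel minus that in Hermes 3A, and no cause was tested. For shBRG1 the ligands gave -4.54 for EFNA1, -2.70 for EFNB3 and 1.22 for EFNA5. Among Eph receptors the effect was lower in 501Mel for EPHA4 (-2.85), EPHB3 (-2.12), EPHA3 (-1.45) and EPHB4 (-1.12) and higher for EPHB1 (3.18), EPHA1 (2.20) and EPHA2 (2.04). EPHA1 and EPHB4 overlap ZYX and SLC12A9 on the opposite strand, and their reads cannot be told apart. With shBRG1 ZYX changed by 3.55 in 501Mel and 1.29 in Hermes 3A, and SLC12A9 by -1.27 and -0.54. In the SLIT and ROBO families SLIT2 gave 2.37, SLIT3 -2.30, ROBO1 -1.21 and ROBO2 -3.16. Netrins gave -3.13 for NTN1 and -2.09 for NTN5, and their receptors 2.47 for UNC5C and 2.58 for UNC5D. For shMITF the difference was 1.80 for EPHA2 and 2.52 for SLIT2. These shMITF calls, and the shBRG1 calls of UNC5D and EFNA5, were lost with certain single samples left out, as given above. With library sizes ROBO1 gave -0.94 and EPHB4 -0.85, short of the limit. The control group of 501Mel enters all these values. EFNA1, SLIT3 and NTN5 differed between its scramble groups by 4.45, 6.12 and 3.80. Against shSCR2 the shBRG1 change in 501Mel was also -0.75 for EFNA5 and 1.40 for UNC5C, where it was 0.78 and 3.34 against shSCR1.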

How the results depend on the processing

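Of 2947 values for single members under alternatives, 2816 kept their side of the threshold, 66 newly passed, 55 no longer passed and 10 turned direction where a fit called them; the cause was not tested. Of the 2816, 81 changed sign without a call in either fit. NTN4 kept its call in all 4 comparisons under every alternative that could be fitted. The 10 came from setting a 501Mel knockdown against the other scramble group, chosen after seeing the data, where 11 uncalled values, such as ROBO3 and EFNA2 with both knockdowns, changed sign too: with shBRG1 EFNB2 -0.17, NTN5 2.81, EFNA3 1.24, EFNA1 1.69 and SLIT3 4.59, and with shMITF EPHA7 2.54, NTN5 -2.85, EFNA3 -1.13, EFNA1 -3.48 and EFNA5 1.48. The limits are 1 line of each kind, 1 hairpin per target, 2 samples a group for shMITF in 501Mel, and low counts for NTN4, UNC5D, EPHB1 and EPHA8.

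For shBRG1 in 501Mel the 9 members that rose were 14 with library sizes, 4 where every sample needed at least 10 counts and 14 without the fold limit, and the 10 that fell were 16 without it. Other pathway genes higher numbered 6, against 3 with pooled scramble groups and 15 without the fold limit. The 13 lower were 8 with library sizes, 22 with the other scramble and 35 without the fold limit. For shMITF in 501Mel the 2 members higher were 4 with library sizes, 5 with no filter, 9 with the other scramble and 4 without the fold limit. The 1 lower was 0 with DESeq2, with at least 10 counts or with pooled scrambles, 2 with all groups of the line in 1 fit and 6 with the other scramble. Pathway genes higher were 2, against 4 in 1 fit, 0 pooled, 8 with the other scramble and 8 without the fold limit. Those lower were 0, against 2 with no filter, 2 in 1 fit, 1 pooled, 6 with the other scramble and 5 without the fold limit.

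For shBRG1 in Hermes 3A the 5 members higher were 3 with at least 10 counts and 15 without the fold limit, and the 0 lower were 3. Pathway genes higher were 4, against 2 with at least 10 counts and 22 without the fold limit, and the 1 lower was 19 without it. For shMITF there, the 2 members lower were 1 with no filter. The 1 pathway gene higher was 0 with at least 10 counts and 4 without the fold limit, and the 2 lower were 1 with library sizes or no filter and 6 without the fold limit. Members with a higher effect of shBRG1 than of shMITF in 501Mel numbered 3, and 5 with library sizes. Library sizes moved the median log2 change of all genes from 0.05 to 0.40 (shBRG1) and 0.01 to 0.11 (shMITF) in 501Mel, and from 0.01 to 0.11 and 0.05 to 0.14 in Hermes 3A. The share of calls that were higher then went from 55.5% to 72% and 62.2% to 72.1% in 501Mel, and from 62.5% to 72.5% and 45.3% to 56% in Hermes 3A. For the differences it went from 44.7% to 61.8% (shBRG1 between lines), 43.2% to 57.3% (within 501Mel), 56.9% to 67.4% (shSCR1 against Hermes 3A) and 62.7% to 71.5% (shSCR1 against shSCR2).

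Leaving out 1 sample at a time gave, for members higher and lower, 8 to 11 and 10 to 11 with shBRG1 and 2 to 6 and 0 to 1 with shMITF in 501Mel, and 4 to 5 and 0 to 1 with shBRG1 and 2 to 3 and 1 to 3 with shMITF in Hermes 3A. For other pathway genes the ranges were 5 to 7 and 13 to 16, 1 to 3 and 0 to 4, 2 to 5 and 1 to 1, and 1 to 2 and 0 to 5 in the same order. The lines differed for 6 to 7 members higher and 11 to 11 lower in the shBRG1 effect and 0 to 3 and 0 to 1 in the shMITF effect. The effects within 501Mel differed for 3 to 5 and 8 to 11, and the scramble levels of the lines for 8 to 10 and 5 to 6. With the replicate number as a block, 2 pathway genes in place of 0 were lower with shMITF in 501Mel, and 3 in place of 2 with shMITF in Hermes 3A. No count of members was moved by the pairing by over 1.5 times.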
